A study of Mus musculus with 12 samples.

Results

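The genes described here build and police the mitotic spindle: the proteins of the kinetochore, the spindle checkpoint, the chromosomal passenger complex, and the mitotic kinases with their partners. The rule is a list of 44 gene symbols and uses no measured value, although the list was drawn up with earlier results of these data known. Of these, 43 matched a symbol among the 55421 Ensembl genes of the deposited count table, and all 43 were among the 18108 genes that passed the filter on low counts and were tested. The remaining gene, Sgo1, is listed there under its older symbol Sgol1 (ENSMUSG00000023940). Its values are given separately and stand outside every count.

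RNA came from cultures of MOC2, a mouse oral squamous cell carcinoma line, in a 2 by 2 design with 3 libraries in each of 4 groups. The labels name a pair of derivatives, MOC2-25, called EV-Proficient, and MOC2-27, called EV-deficient, where EV stands for the extracellular vesicles that cells shed. The series text says that vesicle release was blocked genetically in the model, but the labels do not name the gene or say whether a derivative is a single clone. Each derivative was sampled under DMSO, the solvent, and after 48 h in 600 nM paclitaxel, a drug that binds and stabilises microtubules and was used here to induce senescence. All groups grew in the same serum-containing medium with added hydrocortisone, cholera toxin, insulin and EGF. Replicates are numbered in the labels but not said to be separate cultures, so p-values measure the spread between these libraries, which may be technical.

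The EV labels carry a doubt that precedes every comparison between them. The deposited table has a row for a dngfr sequence, which is not a mouse gene and is explained nowhere in the labels. It read 5.73, 9.07 and 12.2 CPM (counts scaled to the size of the library) in the EV-proficient DMSO libraries and 10.7, 9.63 and 12.4 CPM in the EV-deficient paclitaxel libraries. It read 1.89, 2 and 2.54 CPM in the EV-deficient DMSO libraries and 2.47, 3.5 and 3.76 CPM in the EV-proficient paclitaxel libraries. The sequence was thus high in a different derivative under each treatment, and the groups below are named as the labels name them. The average of both paclitaxel effects does not change if the EV labels are exchanged within a treatment, and it is given beside the effects in each derivative.

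Library totals ran from 23263472 to 62955757 counts. The lowest value of any member was 5.49 CPM, for Cenpm in EV-deficient paclitaxel replicate 2. The labelled cell type was checked against 9 markers listed for squamous epithelium, whose summed level ran from 5090 to 6190 CPM under DMSO and from 3160 to 3990 CPM under paclitaxel. The highest were Krt8 (844 to 2320 CPM), Krt18 (678 to 1560), Cdh1 (595 to 990) and Epcam (386 to 839). These 4 are not particular to squamous cells, so the sum shows epithelium rather than a squamous type. Of the 9, the basal markers Krt5 and Trp63 were at or near 0, with at most 0.171 and 0.18 CPM. Summed markers of fibroblasts (5 genes) ran from 1.36 to 3.22 CPM under DMSO and from 5.38 to 7.97 CPM under paclitaxel, and those of endothelium (2 genes) from 1.23 to 1.9 and from 1.98 to 3.35 CPM. Immune markers (4 genes) summed to 6.61 to 9.71 CPM under DMSO and 22.4 to 39.9 CPM under paclitaxel. Cd68 alone held 6.19 to 39.2 CPM, while the T cell marker Cd3e had at most 2 counts in a library. The part of these shifts in the results below was not tested.

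Kinetochores are protein plates built on centromeric chromatin that carry the histone variant CENP-A, and through them each chromosome is held by spindle microtubules. An unattached kinetochore starts the spindle checkpoint, which restrains the anaphase-promoting complex until every chromosome is attached, and paclitaxel engages it because it disturbs microtubule dynamics. Most of these genes are transcribed late in the cell cycle. Their promoters often carry a cell cycle genes homology region (CHR), bound by the DREAM and MuvB-MYB-FOXM1 complexes, together with CCAAT boxes, bound by NF-Y. The complexes repress the genes in resting cells and activate them in dividing ones.

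The promoters are shown because most of the members moved together under the drug. RefSeq promoter windows (GRCm38.p6, from 250 bases before to 50 after each transcription start) were found for 37 of the 43 members, in 43 windows. The CHR letters TTTGAA, searched on both strands, were in 58.1% of the member windows (Wilson 95% interval 43.3 to 71.6) and in 17.9% of all 32851 windows of the same length. The letters CCAAT, also on both strands, were in 74.4% of member windows (59.8 to 85.1) against 37.4% of all windows. Both were in 48.8% (34.6 to 63.2) against 6.95%. In the 250 bases before the start alone the CHR letters were in 27.9% (16.7 to 42.7) of member windows against 16%. From 50 bases before to 50 after the start they were in 51.2% (36.8 to 65.4) against 4.94%. Some CHR matches began after the start, as in Aurka (base 33) and Plk1 (base 31), a part that is not printed below. A match is a run of letters, not a shown binding site. A CHR and a CCAAT match shared bases in 2 of the 43 member windows, those of Kntc1 and Cdca8, and each kind was counted once a window. For 6 members, chosen after their values were seen, the 150 bases before the start follow in the direction of transcription, with both kinds of match in capitals (TTCAAA and ATTGG are the same letters read on the other strand).
Cdc20 (chr4:118437344-118437493, minus strand): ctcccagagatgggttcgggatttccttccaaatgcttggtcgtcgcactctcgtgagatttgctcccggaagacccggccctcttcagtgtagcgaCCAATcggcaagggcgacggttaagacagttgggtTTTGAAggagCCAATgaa
Top2a (chr11:99024190-99024339, minus strand): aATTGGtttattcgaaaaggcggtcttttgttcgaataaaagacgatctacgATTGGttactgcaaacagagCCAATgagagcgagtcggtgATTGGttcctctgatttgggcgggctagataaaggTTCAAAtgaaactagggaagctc
Mki67 (chr7:135716380-135716529, minus strand): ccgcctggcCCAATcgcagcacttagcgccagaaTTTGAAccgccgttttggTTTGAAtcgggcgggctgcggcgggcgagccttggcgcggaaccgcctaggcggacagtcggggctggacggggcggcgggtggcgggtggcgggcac
Zw10 (chr9:49055431-49055580, plus strand): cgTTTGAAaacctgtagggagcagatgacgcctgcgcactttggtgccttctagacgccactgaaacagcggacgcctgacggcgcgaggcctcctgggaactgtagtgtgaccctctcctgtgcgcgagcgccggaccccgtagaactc
Birc5 (chr11:117849087-117849236, plus strand): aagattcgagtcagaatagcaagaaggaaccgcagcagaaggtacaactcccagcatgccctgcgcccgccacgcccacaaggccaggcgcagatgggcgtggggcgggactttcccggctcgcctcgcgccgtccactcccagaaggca
Nusap1 (chr2:119618148-119618297, plus strand): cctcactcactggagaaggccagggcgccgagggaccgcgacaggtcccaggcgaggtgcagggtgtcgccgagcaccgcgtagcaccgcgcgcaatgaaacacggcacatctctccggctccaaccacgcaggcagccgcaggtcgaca

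In Cdc20 the CHR letters began at base -18 from the start, with CCAAT at -53 and -8, and in Top2a they began at -23, downstream of CCAAT matches at -149, -98, -78 and -58. Mki67 held the CHR letters at -116 and -98. In Zw10 they lay at the far end, at -148, with no CCAAT match in the shown bases. The stretches of Birc5, which fell furthest on average, and Nusap1, the member that rose in both derivatives, held neither run of letters.

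Most of these mitotic genes were lower under paclitaxel, nearly all of them in the cells labelled EV-deficient and a smaller share in those labelled EV-proficient. In the EV-deficient cells 42 of the 43 members were lower under the drug and 1 was higher (adjusted p under 0.05, edgeR's quasi-likelihood test with Benjamini-Hochberg adjustment over 18108 genes). Over all genes tested, 30.5% were called lower and 32.4% higher in this comparison. The median log2 fold change of the members was -0.53, against 0.07 over all genes. In the cells labelled EV-proficient 27 members were lower and 6 higher, against 27.1% and 31.1% of all genes, with a median of -0.30 against 0.05. Averaged over both derivatives, 38 members were lower and 2 higher (31.3% and 37.1% of all genes), with a median of -0.42 against 0.07. In a bulk library, fewer cells in mitosis and less of these RNAs in each cell cannot be told apart.

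**Figure D1:**
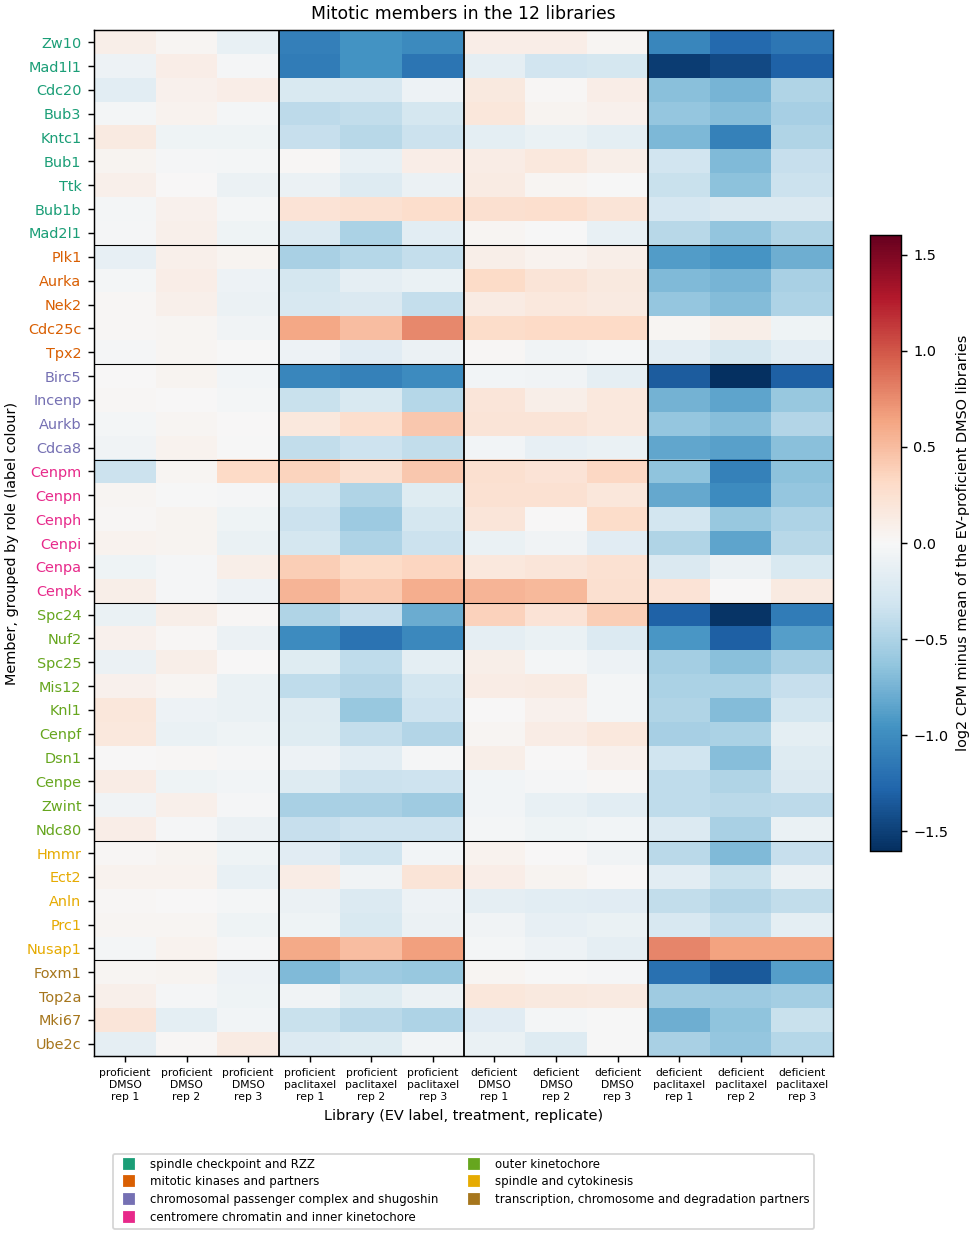
Each row is a member, coloured by role, and each column a library. The colour gives the log2 CPM minus the mean of the 3 EV-proficient DMSO libraries, blue for lower and red for higher. The 3 EV-deficient paclitaxel libraries are blue in nearly every row, with Nusap1 red in all 6 paclitaxel libraries.

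The falls were mostly moderate. A called fall of at least 2-fold was made by 4 members in the EV-proficient and 7 in the EV-deficient cells, against 6.07% and 7.13% of all genes. In both derivatives 3 members, Mad1l1, Zw10 and Birc5, fell that far, as did 1.88% of all genes. The members' share of all counts under DMSO was 0.627% ± 0.017 in EV-proficient and 0.631% ± 0.0042 in EV-deficient cells (SD, n = 3 each). Under paclitaxel the share was 0.609% ± 0.021 and 0.535% ± 0.039 (SD, n = 3 each). All 3 EV-deficient paclitaxel libraries, at 0.500% to 0.577%, lay below the other 9 libraries, whose shares began at 0.585%.

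**Figure D2:**
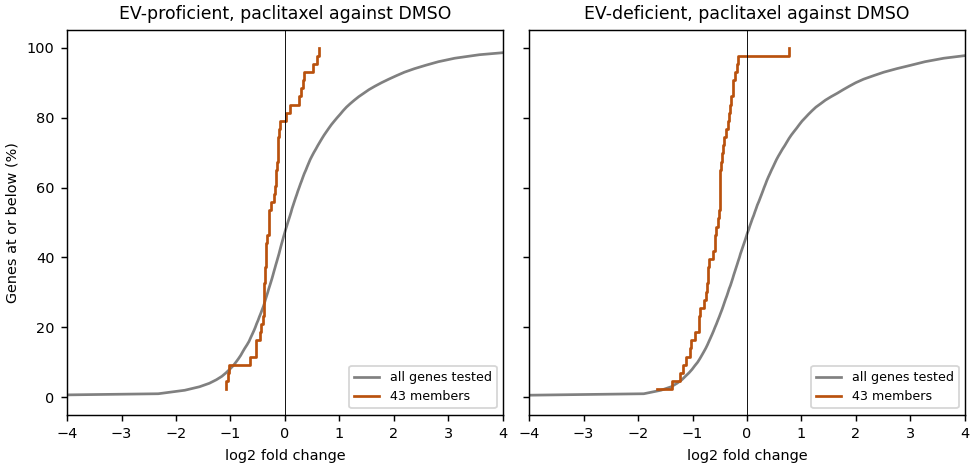
Cumulative share of genes (vertical axis, percent) at or below each log2 fold change of paclitaxel against DMSO (horizontal axis, drawn from -4 to 4). Orange steps are the 43 members and the grey line the 18108 genes tested. The members' medians lie at -0.30 in the EV-proficient (left) and -0.53 in the EV-deficient cells (right), left of the all-gene medians of 0.05 and 0.07.

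By pattern, 27 members were lower in both derivatives, a pattern that 18.5% of all genes had. Another 10 were called lower in the EV-deficient cells and not called in the EV-proficient cells: Bub1, Cenpm, Dsn1, Ect2, Hmmr, Prc1, Top2a, Tpx2, Ttk and Ube2c, as were 8.06% of all genes. The difference between the derivatives was itself called for 8 of these 10, and not for Prc1 and Tpx2. Choosing genes called in the EV-deficient cells alone favours a called difference. The share so called among all genes of this pattern was not counted, so whether 8 of 10 is unusual was not tested. A group of 5 (Aurkb, Bub1b, Cdc25c, Cenpa and Cenpk) was higher in the EV-proficient and lower in the EV-deficient cells, a pattern of 3.93% of all genes. Nusap1 was higher in both, as were 18.9% of all genes. Upper-quartile scaling moved the all-gene median in the EV-deficient cells from 0.07 to 0.26 and the share of calls that were higher from 51.5% to 63.4%. On that scale 35 members were still called lower there, with a median of -0.34.

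**Figure D3:**
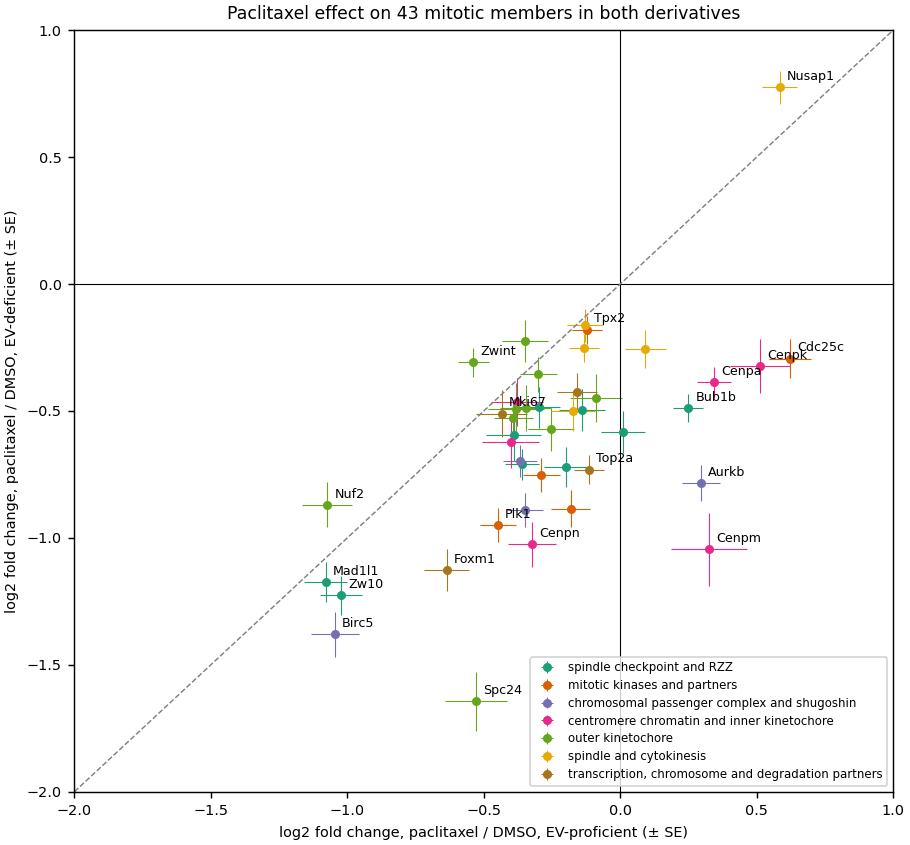
Each point is a member, with the log2 fold change of paclitaxel against DMSO in EV-proficient cells on the horizontal and in EV-deficient cells on the vertical axis (bars are ± SE, colours are roles, the dashed line marks equal effects). Of the 43 members, 39 lie below the dashed line, and Nusap1 is alone in the upper right.

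The counts by role below stand against all-gene shares of 27.1% lower and 31.1% higher in the EV-proficient cells. In the EV-deficient cells the shares were 30.5% and 32.4%. In the spindle checkpoint, 6 of 9 members fell and 1 rose in the EV-proficient cells, and all 9 fell in the EV-deficient cells. The deepest falls were of Mad1l1, the protein that brings Mad2 to unattached kinetochores, and of Zw10, a subunit of the RZZ complex that recruits dynein. Mad1l1 (ENSMUSG00000029554, chr5:140008689-140321552) read 76.7, 87.6 and 80.1 CPM in the EV-proficient DMSO libraries and 37.3, 41.9 and 36.3 under paclitaxel, with 73.7, 65.8 and 66.8 and 28.4, 29.8 and 33.3 CPM in the EV-deficient cells. Every paclitaxel library was below every DMSO library. Its log2 fold changes were -1.08 ± 0.08 SE (edgeR adjusted p 2.26e-10) and -1.17 ± 0.08 SE (edgeR adjusted p 3.7e-11). Zw10 (ENSMUSG00000032264, chr9:49055613-49078775) read 62.7, 59.8 and 54 CPM under DMSO and 27.4, 30.3 and 29.1 under paclitaxel in the EV-proficient cells, and 63, 63.4 and 59.8 then 28.5, 24.8 and 26.3 CPM in the EV-deficient cells. The drop was -1.02 ± 0.08 SE and -1.23 ± 0.08 SE on the log2 scale (edgeR adjusted p 2.46e-10 and 8.07e-12), and its difference between EV labels was not called under either treatment.

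Bub1b, the BubR1 protein of the complex that inhibits the anaphase-promoting complex, went opposite ways. Its levels were 122, 131 and 122 CPM in EV-proficient DMSO and 145, 148 and 152 CPM in EV-proficient paclitaxel libraries, a rise of 0.25 ± 0.06 SE (edgeR adjusted p 0.000646). The EV-deficient values were 149, 151 and 144 CPM under DMSO and 104, 106 and 106 CPM under paclitaxel, a fall of -0.49 ± 0.06 SE (edgeR adjusted p 1.2e-07). Mad2l1, which captures Cdc20, fell by about as much as Bub1b in the EV-deficient cells, from 103, 101 and 93.1 to 74.6, 65.4 and 72.5 CPM (-0.49 ± 0.08 SE, edgeR adjusted p 1.65e-05), and from 100, 107 and 96.9 to 86.8, 71.2 and 89.7 CPM in the EV-proficient cells (-0.30 ± 0.08 SE, edgeR adjusted p 0.00295). Cdc20, the activator of the anaphase-promoting complex that the checkpoint holds back, read 150, 177 and 182 CPM and, with drug, 143, 141 and 160 CPM in the EV-proficient cells. There the libraries overlapped in part and the fold change was -0.20 ± 0.08 SE (edgeR adjusted p 0.0345). The call was lost without EV-proficient DMSO replicate 2 (-0.17) or replicate 3 (-0.15). In the EV-deficient cells Cdc20 went from 189, 171 and 182 to 106, 101 and 121 CPM (-0.72 ± 0.08 SE, edgeR adjusted p 5.93e-08). Of the other members, Bub3, Kntc1, Bub1 and the kinase Ttk fell by between 0.50 and 0.71 in the EV-deficient cells, and Bub1 (0.01) and Ttk (-0.14) were not called in the EV-proficient cells.

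Among the mitotic kinases and their partners, 3 of 5 fell and 1 rose in the EV-proficient cells, and all 5 fell in the EV-deficient cells. Plk1, the polo-like kinase of mitotic entry and spindle assembly, read 136, 157 and 153 CPM under DMSO and 104, 108 and 114 CPM under paclitaxel in the EV-proficient cells. The corresponding EV-deficient libraries read 158, 154 and 159 and 80.2, 77.2 and 86.7 CPM. The groups did not overlap in either derivative, and the log2 fold changes were -0.45 ± 0.07 SE and -0.95 ± 0.07 SE (edgeR adjusted p 4.79e-06 and 5.55e-11). For Aurka, the spindle-pole kinase, the values were 142, 156 and 137 and 119, 131 and 134 CPM in the EV-proficient and 179, 167 and 162 and 88.6, 86.1 and 101 CPM in the EV-deficient cells. Its fall was small in the former (-0.18 ± 0.07 SE, edgeR adjusted p 0.0367) and larger in the latter (-0.88 ± 0.07 SE, edgeR adjusted p 7.07e-10). The smaller call was lost without EV-proficient DMSO replicate 1 (-0.20) or 2 (-0.12), EV-proficient paclitaxel replicate 1 (-0.18) or EV-deficient DMSO replicate 2 (-0.18), the last of which enters only the shared spread.

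Tpx2, the activator of Aurka on microtubules, moved little. It read 256, 264 and 257 CPM and 244, 229 and 242 CPM without and with drug in the EV-proficient cells, which was not called (-0.12, edgeR adjusted p 0.0672), and 262, 248 and 254 and 231, 214 and 230 CPM in the EV-deficient cells, which was (-0.18 ± 0.06 SE, edgeR adjusted p 0.00773). Upper-quartile scaling ended that call and turned its sign (0.0048). Cdc25c, the phosphatase that switches on Cdk1, rose in the EV-proficient cells from 29.3, 29.5 and 27.9 to 44.2, 40.6 and 49.2 CPM (0.62 ± 0.08 SE, edgeR adjusted p 5.36e-07), the largest rise of any member there. In the EV-deficient cells it went from 35.4, 36 and 36 to 29.4, 30.8 and 27.5 CPM (-0.29 ± 0.08 SE, edgeR adjusted p 0.00213), to about its EV-proficient DMSO level. With upper-quartile scaling this fall was not called (-0.11). Averaged over the derivatives Cdc25c was called higher (0.16 ± 0.05 SE, edgeR adjusted p 0.0111), a call lost without EV-proficient paclitaxel replicate 3 (0.10). The Cdc25c exons share 12.7% of their bases with Gm3550 on the opposite strand, and whether strand was used in counting is not stated. Nek2, a kinase of centrosome separation, fell in both derivatives (-0.29 and -0.75).

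The 4 matched subunits of the chromosomal passenger complex, which corrects faulty attachments, parted in the EV-proficient cells, where 3 fell and Aurkb rose. All 4 fell in the EV-deficient cells. Birc5 (survivin, ENSMUSG00000017716, chr11:117849251-117855743) read 194, 199 and 188 CPM and, with paclitaxel, 94.2, 91.4 and 96.3 CPM in the EV-proficient cells. Its EV-deficient libraries read 188, 186 and 176 and 76.9, 56.3 and 78 CPM. All 6 paclitaxel libraries lay at 96.3 CPM or below and all 6 DMSO libraries at 176 CPM or above. The log2 fold changes were -1.05 ± 0.09 SE and -1.38 ± 0.09 SE (edgeR adjusted p 1.27e-09 and 1.2e-11), and the average, -1.21 ± 0.06 SE, was the lowest of the 43 members. The kinase subunit Aurkb read 126, 131 and 129 CPM under DMSO and 144, 155 and 174 CPM under paclitaxel in the EV-proficient cells (0.30 ± 0.07 SE, edgeR adjusted p 0.000957). With 149, 149 and 145 CPM under DMSO and 83.5, 80.4 and 93.3 CPM under paclitaxel it fell in the EV-deficient cells (-0.78 ± 0.07 SE, edgeR adjusted p 2.48e-09). Thus the highest and the lowest Aurkb groups were both paclitaxel groups. Cdca8 (borealin), the member of the complex that fell least in the EV-deficient cells, read 139, 150 and 144 and 110, 115 and 110 CPM in the EV-proficient and 140, 132 and 134 and 81, 78.9 and 90.5 CPM in the EV-deficient cells (-0.37 ± 0.06 SE and -0.70 ± 0.06 SE, edgeR adjusted p 3.23e-05 and 2.98e-09). The scaffold Incenp changed by -0.35 and -0.89. Sgo1, the shugoshin that protects centromeric cohesin, read 77.5, 78.4 and 78.3 and 69.2, 61.8 and 76.6 CPM in the EV-proficient cells, not called (-0.18, edgeR adjusted p 0.0974). It fell in the EV-deficient cells from 80.9, 78.9 and 77.8 to 68, 53.2 and 72.1 CPM (-0.30 ± 0.09 SE, edgeR adjusted p 0.00632).

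Centromeric chromatin and the inner kinetochore were split in the EV-proficient cells, with 3 of 6 members lower, 2 higher and a median of 0.0015 (27.1%, 31.1% and 0.05 over all genes). All 6 fell in the EV-deficient cells, with a median of -0.54. Cenpm (ENSMUSG00000068101, chr15:82233779-82244748), an inner kinetochore subunit, read 9.14, 11.9 and 14.5 CPM in the EV-proficient DMSO libraries, a wide spread, and 14.9, 13.9 and 15.7 CPM with drug. That difference was not called (0.33 ± 0.14 SE, edgeR adjusted p 0.0532) but was without EV-proficient DMSO replicate 3 (0.49). In the EV-deficient cells Cenpm went from 13.9, 13.6 and 14.6 to 7.44, 5.49 and 7.37 CPM (-1.05 ± 0.14 SE, edgeR adjusted p 1.4e-06). Cenpk, another inner subunit with few counts, rose from 11.1, 10.3 and 9.83 to 15.2, 13.9 and 15.5 CPM in the EV-proficient cells (0.51 ± 0.11 SE, edgeR adjusted p 0.000391). It fell from 15.1, 14.9 and 12.4 to 12.1, 10.4 and 11.5 CPM in the EV-deficient cells (-0.32 ± 0.11 SE, edgeR adjusted p 0.0121), a call lost without EV-deficient DMSO replicate 1 (-0.28) and with upper-quartile scaling (-0.14). Cenph, by contrast, fell in both derivatives, from 23.2, 23.6 and 21.9 to 18.1, 15.3 and 18.9 CPM (-0.40 ± 0.10 SE, edgeR adjusted p 0.00239) and from 26.2, 22.9 and 28.1 to 18.7, 15 and 16.3 CPM (-0.62 ± 0.10 SE, edgeR adjusted p 1.76e-05). Cenpa, the histone variant that marks the centromere, changed by 0.34 and -0.39, both called. Cenpi and Cenpn fell in both, Cenpn by -1.03 in the EV-deficient cells.

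Members of the outer kinetochore, the part that grips microtubules, fell in 9 of 10 cases in the EV-proficient and in 10 of 10 in the EV-deficient cells, and none rose. The 4 subunits of the Ndc80 complex did not fall alike. Nuf2 read 72.6, 70.2 and 65 and 34.4, 30.5 and 33.9 CPM in the EV-proficient cells (-1.07 ± 0.09 SE, edgeR adjusted p 1.62e-09). In the EV-deficient cells it read 62.8, 64.2 and 59.4 and 36.2, 28.1 and 37.6 CPM (-0.87 ± 0.09 SE, edgeR adjusted p 2.19e-08), and the difference between these falls was not called. Its partner Ndc80 read 63.3, 57.8 and 54.9 and 45.4, 46.5 and 46.4 CPM (-0.35 ± 0.08 SE, edgeR adjusted p 0.00128) and 57.4, 55.6 and 56.8 and 50.2, 40.9 and 54.2 CPM (-0.22 ± 0.08 SE, edgeR adjusted p 0.024). The Ndc80 call in the EV-deficient cells was lost without EV-deficient DMSO replicate 1 (-0.23) or EV-deficient paclitaxel replicate 2 (-0.11), and with upper-quartile scaling (-0.039), the filter of 1 CPM in 3 libraries (-0.16) or only the groups compared (-0.21).

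Spc24 (ENSMUSG00000074476, chr9:21755442-21760303), which joins the complex to the inner plate, fell furthest of all members in the EV-deficient cells, from 30.3, 27.3 and 30.7 to 9.52, 7.87 and 10.8 CPM (-1.64 ± 0.12 SE, edgeR adjusted p 6.82e-11). In the EV-proficient cells it went from 21.7, 24.9 and 23.7 to 16.7, 18.1 and 13.5 CPM (-0.53 ± 0.11 SE, edgeR adjusted p 0.000433). Its partner Spc25 changed by -0.25 and -0.57, with the smaller call lost without EV-proficient DMSO replicate 2 (-0.20) or with upper-quartile scaling (-0.19). Dsn1, of the Mis12 complex, read 29.4, 29.6 and 28.9 and 27.8, 26 and 29 CPM in the EV-proficient cells, not called (-0.09, edgeR adjusted p 0.444), and 31.4, 29.5 and 30.6 and 23.5, 18.2 and 25.3 CPM in the EV-deficient cells (-0.45 ± 0.10 SE, edgeR adjusted p 0.000309). Mis12, Knl1, Zwint, the kinesin Cenpe and Cenpf fell in both derivatives, by between 0.30 and 0.54 in the EV-proficient and between 0.31 and 0.53 in the EV-deficient cells.

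**Figure D4:**
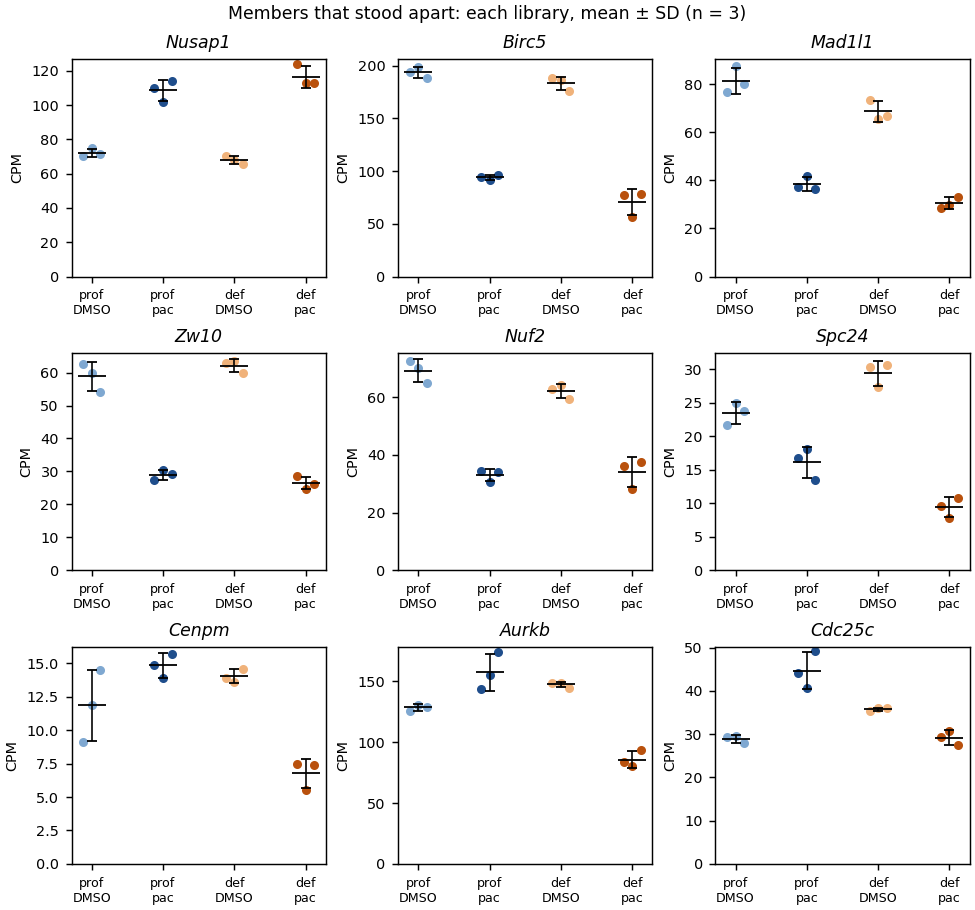
Each dot is a library and each panel a member, on a linear CPM axis from 0 with the mean ± SD (n = 3) of each group (prof, EV-proficient; def, EV-deficient; pac, paclitaxel). The members shown were chosen after their values were seen. Birc5, Mad1l1, Zw10 and Nuf2 are low in both paclitaxel groups, Spc24 and Cenpm are lowest in EV-deficient paclitaxel libraries, and Nusap1 is high in both paclitaxel groups.

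Of the 5 spindle and cytokinesis factors 1 was lower and 1 higher in the EV-proficient cells, not above the 27.1% and 31.1% of all genes. In the EV-deficient cells 4 were lower and 1 higher (30.5% and 32.4% of all genes). Nusap1 (ENSMUSG00000027306, chr2:119618298-119651244), which bundles and stabilises spindle microtubules, read 70.5, 74.9 and 71.5 CPM in the EV-proficient DMSO libraries and 110, 102 and 114 CPM under paclitaxel. Its EV-deficient libraries read 70.6, 68.2 and 65.7 CPM under DMSO and 124, 113 and 113 CPM under paclitaxel. All 6 paclitaxel libraries were at 102 CPM or more and all 6 DMSO libraries at 74.9 CPM or less. The rises were 0.58 ± 0.06 SE and 0.78 ± 0.06 SE (edgeR adjusted p 9.25e-08 and 8.44e-10). Nusap1 shares 4.24% of its exon bases with Oip5 on the opposite strand, which itself changed by 0.67 and 0.47. Hmmr, a spindle-pole protein, read 202, 205 and 190 and 176, 160 and 193 CPM in the EV-proficient cells, not called (-0.17, edgeR adjusted p 0.0672), and fell from 206, 200 and 192 to 147, 122 and 154 CPM in the EV-deficient cells (-0.50 ± 0.08 SE, edgeR adjusted p 1.13e-05). Ect2, the exchange factor that activates RhoA for the cleavage furrow, read 197, 197 and 173 and 205, 182 and 217 CPM (0.09, edgeR adjusted p 0.311, not called) and 203, 194 and 190 and 168, 147 and 177 CPM (-0.25 ± 0.08 SE, edgeR adjusted p 0.00587). Prc1, which bundles the central spindle, was called lower in the EV-deficient cells alone (-0.16), a call lost without EV-deficient DMSO replicate 1 (-0.15) or EV-deficient paclitaxel replicate 2 (-0.11) and turned in sign by upper-quartile scaling (0.021). Prc1 also shares 11.1% of its exon bases with Rccd1 on the opposite strand. Anillin (Anln) changed by -0.13 and -0.25, the smaller of these called with little margin (edgeR adjusted p 0.0471) and lost without any single DMSO library (-0.15 to -0.12).

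The remaining 4 members link the set to transcription, chromosome structure and protein destruction, and all 4 fell in the EV-deficient cells, 2 of them also in the EV-proficient cells. Foxm1, a transcription factor of late cell cycle genes, read 223, 225 and 205 CPM and, under paclitaxel, 133, 145 and 143 CPM in the EV-proficient cells, and 222, 217 and 214 and 94.7, 86 and 118 CPM in the EV-deficient cells. The log2 fold changes were -0.64 ± 0.08 SE and -1.13 ± 0.08 SE (edgeR adjusted p 9.76e-07 and 1.41e-10), with no overlap between groups. Mki67, the proliferation marker Ki-67, read 795, 622 and 675 and 543, 514 and 491 CPM in the EV-proficient and 610, 680 and 690 and 404, 444 and 541 CPM in the EV-deficient cells. Top2a, the topoisomerase that untangles sister chromatids, had the highest counts of the set: 1010, 938 and 908 and 916, 832 and 890 CPM in the EV-proficient cells, not called (-0.11, edgeR adjusted p 0.0883). Its EV-deficient libraries read 1080, 1060 and 1050 CPM under DMSO and 642, 636 and 650 CPM under paclitaxel (-0.73 ± 0.06 SE, edgeR adjusted p 2.92e-10), the latter close together and far below every other library. Ube2c, the ubiquitin-conjugating enzyme of the anaphase-promoting complex, read 148, 165 and 178 and 140, 143 and 158 CPM (-0.16, edgeR adjusted p 0.0748, not called) and 151, 142 and 163 and 114, 106 and 119 CPM (-0.43 ± 0.07 SE, edgeR adjusted p 3.39e-05). Of its exon bases 22.8% overlap Tnnc2 on the opposite strand.

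The paclitaxel effect itself differed between the derivatives for 26 of the 43 members (interaction term, edgeR adjusted p under 0.05). It was lower in the EV-deficient cells for 25 of them and higher for Zwint, against 23.8% and 16.9% of all genes. The median difference was -0.33, against -0.04 over all genes, and 17 of the 25 were called under every scaling, filter, tool and left-out library tried. The largest differences were those of Cenpm (-1.37 ± 0.20 SE, edgeR adjusted p 1.05e-05), Spc24 (-1.12 ± 0.16 SE, edgeR adjusted p 9.7e-06), Aurkb (-1.08 ± 0.10 SE, edgeR adjusted p 1.52e-08), Cdc25c (-0.92 ± 0.11 SE, edgeR adjusted p 7.41e-07) and Cenpk (-0.83 ± 0.15 SE, edgeR adjusted p 0.000146). These rest on the EV labels. With the DMSO groups exchanged the same 5 gave -0.88 (Cenpm) and -0.68 (Aurkb), both called, and -0.46 (Spc24), -0.30 (Cdc25c) and 0.05 (Cenpk), none called. Among the outer kinetochore members 3 of 10 differed in the negative direction, near the 23.8% of all genes, and among the passenger complex 4 of 4. Members whose difference was not called included Mad1l1 (-0.10 ± 0.11 SE), Zw10 (-0.20 ± 0.11 SE), Nuf2 (0.20 ± 0.13 SE), Mki67 (-0.08 ± 0.13 SE) and Nusap1 (0.19 ± 0.09 SE). Upper-quartile scaling left 17 members with a lower effect and moved the share of all interaction calls that were positive from 41.4% to 53.9%. Without EV-deficient paclitaxel replicate 2 the median difference was -0.18.

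**Figure D5:**
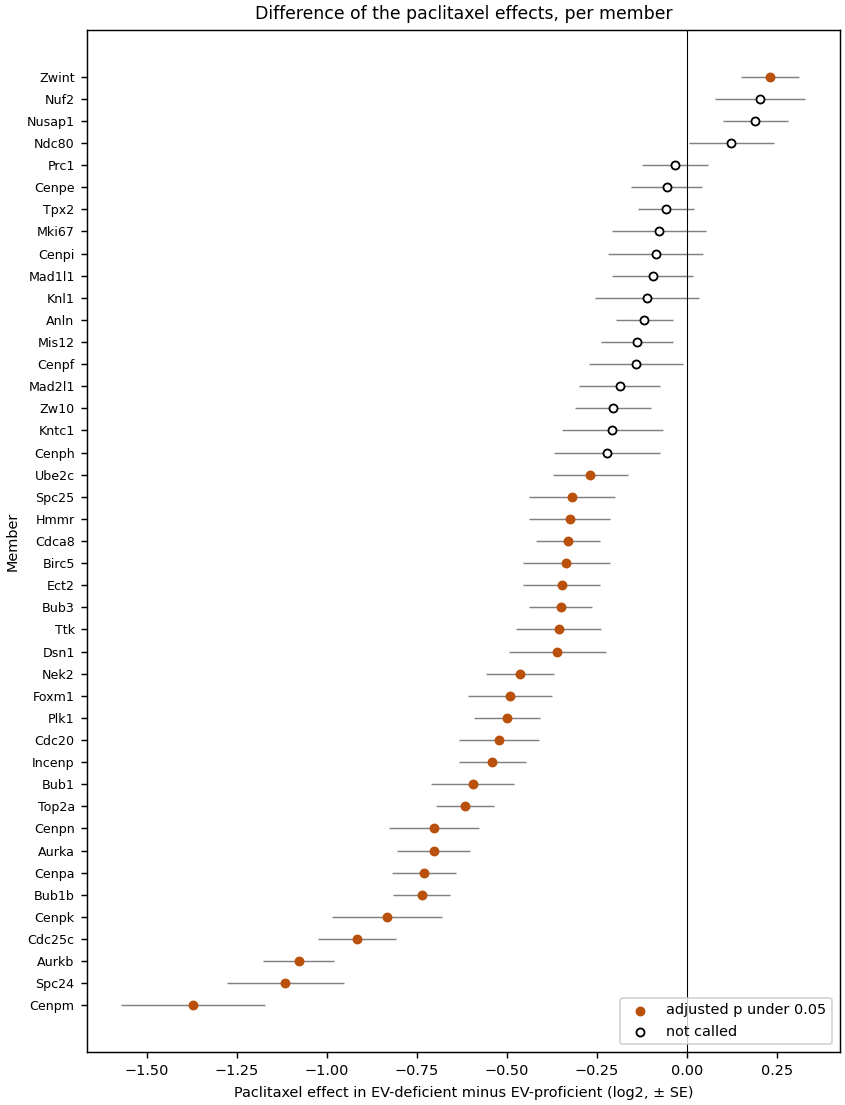
For each member (vertical axis) the point gives the paclitaxel effect in EV-deficient minus that in EV-proficient cells on the log2 scale, with bars of ± SE. Filled points passed an adjusted p of 0.05. They run from Cenpm at -1.37 to Ube2c at -0.27, with Zwint at 0.23 on the other side.

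Between the derivatives without drug few members differed. Under DMSO 8 were higher and 2 lower in the cells labelled EV-deficient, against 12.4% and 10.6% of all genes, and the median was 0.05, against 0.04 over all genes. These counts were unstable: the fits with any 1 of the 12 libraries left out gave 3 to 5 higher and 0 to 4 lower, and fitting just the 2 DMSO groups gave 10 higher and 8 lower. The 8 were Aurka, Aurkb, Bub1b, Cdc25c, Cenpa, Cenpk, Spc24 and Top2a, with log2 differences of 0.16 to 0.44. Bub1b (0.25 ± 0.06 SE, edgeR adjusted p 0.0023), Cdc25c (0.31 ± 0.08 SE, edgeR adjusted p 0.00542) and Cenpk (0.44 ± 0.11 SE, edgeR adjusted p 0.00461) were called under every scaling, filter, tool and left-out library tried, and the other 5 were not. The 2 lower members were Mad1l1 (-0.24 ± 0.08 SE, edgeR adjusted p 0.0259) and Anln (-0.17 ± 0.06 SE, edgeR adjusted p 0.0338). The Mad1l1 call was lost without EV-proficient DMSO replicate 2 (-0.18) or 3 (-0.25) or EV-deficient DMSO replicate 2 (-0.21) or 3 (-0.22), and the Anln call without any of the 6 DMSO libraries (-0.18 to -0.15).

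Under paclitaxel 29 members were lower and 0 higher in the cells labelled EV-deficient, against 21.8% and 16% of all genes, and the median was -0.32, against -0.0047. Upper-quartile scaling called 26 lower and 2 higher, Zwint (0.21) and Nusap1 (0.20), and moved the share of all calls that were higher from 42.4% to 58.2%. DESeq2 called Zwint higher (0.14). The members that differed most were Cenpm (-1.13 ± 0.14 SE, edgeR adjusted p 2.74e-06), Aurkb (-0.88 ± 0.07 SE, edgeR adjusted p 4.02e-09), Spc24 (-0.79 ± 0.12 SE, edgeR adjusted p 1.92e-05) and Cdc25c (-0.61 ± 0.08 SE, edgeR adjusted p 2.63e-06). By role, 8 of 9 checkpoint members, 4 of 4 of the passenger complex, 4 of 5 kinases and partners and 3 of 10 outer kinetochore members were lower. The last count was near the 21.8% of all genes, and differences between roles were not tested. Some calls rested on single libraries. Mad2l1, Kntc1 and Dsn1 were lost without EV-deficient paclitaxel replicate 2 (-0.15, -0.20 and -0.17), and Mad2l1 and Dsn1 also without EV-proficient paclitaxel replicate 1 (-0.18 and -0.30) or 3 (-0.16 and -0.28).

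The sign of the EV-label difference was opposite under DMSO and under paclitaxel for 29 of 43 members, and 25 of these were higher in EV-deficient cells without drug and lower with it. Over all genes the sign was opposite for 67.1%, and 36.2% were higher without drug and lower with it, so the share of opposite signs among the members was near that of all genes. The 8 members called higher under DMSO were all called lower under paclitaxel, and 5 of those 8 DMSO calls were lost in some fits with 1 library left out. Over all genes 2242 were called higher under DMSO, and 1554 of these were called lower under paclitaxel (8.58% of all genes tested). Most genes called higher under DMSO thus had the same reversal. Since dngfr also changed sides with the treatment, though in the opposite sense (lower in EV-deficient cells under DMSO and higher under paclitaxel), each paclitaxel group was also set against the DMSO group of the other EV label, a comparison added after the data were seen. EV-deficient paclitaxel against EV-proficient DMSO libraries gave 40 members lower and 1 higher (28.8% and 32.6% of all genes), with a median of -0.53. EV-proficient paclitaxel against EV-deficient DMSO libraries gave 27 lower and 2 higher (26.8% and 30.1% of all genes), with a median of -0.28. Of the 5 members that rose in the EV-proficient and fell in the EV-deficient cells, Cdc25c kept a called rise in the EV-proficient paclitaxel libraries (0.31 ± 0.08 SE, edgeR adjusted p 0.00142). The values of the other 4 there were 0.10 (Aurkb), 0.0012 (Bub1b), 0.15 (Cenpa) and 0.07 (Cenpk), none called. In the EV-deficient paclitaxel libraries Aurkb (-0.58), Bub1b (-0.24) and Cenpa (-0.19) were lower in this comparison too, and Cdc25c (0.02) and Cenpk (0.12) were not called. Birc5 (-1.46 and -0.97) and Nusap1 (0.69 and 0.67) were called in their usual directions both times. The interaction computed with the DMSO groups exchanged was called lower for 12 members and higher for 0 (6.2% and 3.41% of all genes), with a median of -0.25, against 0.0054 over all genes. Of the 25 members with a lower effect as labelled, 9 were also called lower this way: Aurkb, Birc5, Cdca8, Cenpa, Cenpm, Foxm1, Plk1, Top2a and Ube2c. Which derivative a library came from was not tested.

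Other genes of the mitotic pathway, 95 in 4 lists and all tested, went the same way in most cases. In the EV-proficient cells 52 were lower and 14 higher (27.1% and 31.1% of all genes), with a median of -0.23. In the EV-deficient cells 68 were lower and 7 higher (30.5% and 32.4% of all genes), with a median of -0.47. Of 28 further kinetochore and centromere genes 20 fell and 2 rose in the EV-deficient cells, and of 17 subunits and regulators of the anaphase-promoting complex 13 fell and 0 rose. Of 21 cohesin, condensin and separase genes 15 fell and 3 rose there, and of 29 genes of mitotic entry, spindle poles and cytokinesis 20 fell and 2 rose. Named after their values were seen, Mybl2, the B-Myb subunit that activates late cell cycle genes with MuvB, changed by -1.37 and -1.90 in the EV-proficient and EV-deficient cells. The checkpoint remodeller Trip13 changed by -1.07 and -1.12. Genes called higher in both derivatives were Pttg1, which encodes securin (0.75 and 0.86), the Cdk1-inhibiting kinase Wee1 (0.90 and 0.63), Mastl (0.18 and 0.65), Cenpc1 (0.53 and 0.85), Oip5 and Stag2. Under DMSO 12 of the 95 were higher and 9 lower in the EV-deficient cells, against 12.4% and 10.6% of all genes, which is near the background. Under paclitaxel 2 were higher and 39 lower (16% and 21.8% of all genes), and the interaction was called positive for 10 and negative for 39 (16.9% and 23.8% of all genes).

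Levels of different members were compared per length, as CPM per kilobase of merged exons (GENCODE M21). The merged length takes in the exons of every annotated transcript and can exceed that of the RNA present. The order and closeness of members below rest on this length, and which transcripts were present was not tested. In the EV-proficient DMSO libraries Top2a stood highest at 106 ± 5.8 (SD, n = 3), followed by Cdc20 (90.8 ± 9.2), Mki67 (69.3 ± 8.8) and Plk1 (67.6 ± 5.1), and the last 2 did not differ beyond their spread. Subunits of one complex differed in level: Birc5 (56.9 ± 1.6) and Incenp (56.1 ± 1.0) lay together, above Aurkb (43.7 ± 0.85) and Cdca8 (27.9 ± 1.1). The Ndc80 complex lay close together, with Spc25 at 11.2 ± 0.74, Nuf2 at 10.9 ± 0.61, Spc24 at 9.11 ± 0.63 and Ndc80 at 9.04 ± 0.66. In the EV-deficient paclitaxel libraries the same 4 stood at 7.49 ± 0.43, 5.36 ± 0.81, 3.65 ± 0.57 and 7.46 ± 1.1 (SD, n = 3 each). Cenpk was the lowest member in the EV-proficient DMSO libraries, at 1.99 ± 0.12. The members lie on 17 chromosomes, and 13 of the 43 share some exon bases with another annotated gene.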

How the data were processed

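The 12 libraries were made from polyadenylated RNA with a kit that marks strand, as the labels' protocols state. What the authors deposited is a single table of raw, unscaled counts for each gene. The submitters' processing notes name STAR 2.5.0a and GRCm38, and the counting program and its strand setting are not given in the sources used here. Groups and replicate numbers came from sample titles. The 2 added rows, gfp (0 counts in all libraries) and dngfr, were left out of library sizes and tests, and the table had 0 columns of other samples. No library had over 0.102% of its counts on genes lacking a symbol.

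These counts went into edgeR 4.0.16 (R 4.3.3). The steps were filterByExpr (minimum count 10) on the 4 groups, TMM scaling (factors 0.890 to 1.15) and a quasi-likelihood fit of group means over all 12 libraries (common dispersion 0.00956). P-values were adjusted by Benjamini-Hochberg over 18108 genes, with a threshold of 0.05. The 4 simple comparisons, the average paclitaxel effect and the interaction were tested. CPM use the scaled library sizes. Over the members only counts of calls and medians are given, in most cases beside the same over all genes. The members, the 4 lists of other genes and the tests were chosen with earlier results of these data known. In each of 7 role groups, values in every library are given for the members with the highest and lowest fold change in either derivative and the largest interaction, and for Plk1, Aurka, Aurkb, Cdc20, Birc5, Foxm1, Mki67 and Top2a.

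Replicates of a group differed beyond sampling noise (chi-square per degree of freedom 4.20 to 27.8 over 12 pairs). The fit was repeated with scaling by the upper quartile or by median ratios, without a count filter, with a filter of 1 CPM in 3 libraries, with DESeq2 1.42.0, limma-voom (limma 3.58.1), a block for the replicate number, the 2 groups of a comparison alone, each library left out and, added after the data were seen, the DMSO group of the other EV label. The test was first tested on simulated data. Gene lengths and overlaps came from GENCODE M21 (GRCm38), promoters from RefSeq (GRCm38.p6). Promoter intervals cover counting error only. Cenps, Sgo2a and Haspin of the lists were matched by ID. One gene of the immune marker list is not reported here.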

Additional observations from a re-analysis of the deposited data

Results flagged for a closer look

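The paclitaxel effect differed between the derivatives for 26 members by the interaction term of the edgeR model (adjusted p under 0.05), and each difference below is the log2 effect in EV-deficient minus that in EV-proficient cells. In the checkpoint they were -0.59 for Bub1, -0.74 for Bub1b, -0.35 for Bub3, -0.36 for Ttk and -0.52 for Cdc20. Among kinases and partners they were -0.50 for Plk1, -0.70 for Aurka, -0.46 for Nek2 and -0.92 for Cdc25c. In the passenger complex they were -1.08 for Aurkb, -0.54 for Incenp, -0.34 for Birc5 and -0.33 for Cdca8. Inner kinetochore members gave -0.73 for Cenpa, -0.83 for Cenpk, -1.37 for Cenpm and -0.70 for Cenpn. Outer kinetochore members gave -1.12 for Spc24, -0.32 for Spc25, -0.36 for Dsn1 and, in the other direction, 0.23 for Zwint. Of the rest, Ect2 gave -0.35, Hmmr -0.33, Foxm1 -0.49, Top2a -0.62 and Ube2c -0.27. The EV label of each group is as deposited, and with the DMSO groups exchanged 9 of the 25 negative differences were called.

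Of these 26 calls, 8 were not made in every one of the 12 fits with 1 library left out. The call was lost in 10 fits for Dsn1 (-0.38 to -0.18 in those fits) and Ube2c (-0.29 to -0.18), in 7 for Birc5 (-0.34 to -0.15) and Spc25 (-0.33 to -0.22), in 5 for Hmmr (-0.31 to -0.18), in 4 for Ttk (-0.33 to -0.21) and in 3 for Ect2 (-0.29 to -0.22) and Zwint (0.17 to 0.21). All of these but Zwint were lost without EV-deficient paclitaxel replicate 2 and also without EV-proficient paclitaxel replicate 1 or 3. Zwint was lost without EV-proficient DMSO replicate 2 or EV-deficient DMSO replicate 2 or 3.

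The added dngfr row, which is outside the gene tests, averaged 10.9 ± 1.4 CPM in the EV-deficient paclitaxel libraries against 2.15 ± 0.35 CPM in the EV-deficient DMSO libraries (SD, n = 3 each). In the cells labelled EV-proficient the order was the reverse, 8.99 ± 3.2 CPM under DMSO and 3.24 ± 0.68 CPM under paclitaxel (SD, n = 3 each). Its cause was not tested.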

How the results depend on the processing

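Across settings and left-out libraries, 4785 single-member values kept their sign and call, 87 gained a call, 221 lost one and 103 changed sign without a call in either fit. Another 7 that were called in one of the fits turned their sign: Tpx2 (0.0048) and Prc1 (0.021) in EV-deficient cells and Bub1b (0.0033) in the average under upper-quartile scaling, and, against the DMSO group of the other EV label, Cdc25c (0.015), Cenpk (0.12), Anln (0.035) and the interaction of Cenpk (0.051). Upper-quartile scaling also moved the members' medians to -0.34 (EV-deficient), -0.30 (average) and -0.23 (EV label under paclitaxel), with 4 members higher under DMSO, 2 higher under paclitaxel and 3 positive interactions. Median-of-ratios scaling gave 5 members higher under DMSO and 2 positive interactions. No low-count filter gave 0 lower under DMSO and 0 positive interactions. A filter of 1 CPM in 3 libraries and DESeq2 each gave 1 higher under paclitaxel and 2 positive interactions. The DMSO groups alone gave 8 lower, and the other DMSO group gave 2 EV-proficient rises and 12 negative and 0 positive interactions. The cause of these shifts was not tested. Leaving out each library in turn gave 23 to 33 members lower and 6 to 7 higher in EV-proficient cells, 39 to 42 lower and 1 higher in EV-deficient cells, and 38 to 39 lower and 1 to 2 higher on average. Under DMSO 3 to 5 were higher and 0 to 4 lower, under paclitaxel 26 to 32 lower and 0 to 1 higher, and 18 to 25 interactions were negative and 0 to 4 positive. The median interaction ran from -0.37 to -0.18, the latter without EV-deficient paclitaxel replicate 2.

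With the replicate number as a block 28 members were lower and 7 higher in EV-proficient cells and 42 lower and 1 higher in EV-deficient cells. Same-numbered libraries of different groups correlated between -0.081 and 0.097 in their deviations (18 pairs), so the numbers were not taken as a pairing. Library totals began at 23263472 counts, and the lowest member value was 5.49 CPM (Cenpm).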
